A study of Mus musculus with 29 samples.

Results

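Cortical neurons taken from adult mice after a conditioning lesion were compared with naive ones on day 7 in culture, the latest of the 5 days that the study sampled. The lesion group, Lesion_D7, holds 3 libraries and its naive counterpart, Naive_D7, holds 2, together 5 of the 29 libraries of the study; all were chosen by the treatment and day in their labels. Lesion cultures came from mice injured in the living animal one day before their neurons were plated, and the labels do not say where the lesion was made. Naive cultures had no treatment. Both groups are wild type on the C57/BL6 background, from adult animals whose exact age is not stated, and both went through the same isolation and plating, so neither stands for uninjured cortex. The labels name the cells adult neurons. Each library may or may not be its own culture or animal, which the labels do not tell. The spread between libraries that enters the p-values may therefore be technical.

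A conditioning lesion is an injury given ahead of a second challenge. In sensory neurons it is known to switch on a set of regeneration-associated genes and to raise the ability to regrow an axon. Cultures of adult cortex also hold cells other than neurons, among them glia, vascular mural cells and fibroblasts of the meninges. The last of these are known as a main source of fibrillar collagen after brain injury.

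The measurements are the authors' own comparisons, made with voom and limma, of lesion against naive at each day. A log2 fold change above 0 means a higher level in lesion cultures. A gene is called changed here, and said to have risen or fallen, where its adjusted p in the authors' deposited table was under 0.1. Each error printed after ± is a standard error (SE) implied by the deposited fold change and its p-value, with 37 degrees of freedom. That is more than the 5 day 7 libraries could give by themselves, so errors and p-values do not measure their spread alone. The authors' deposited table lists only the 5826 genes, of 19085 tested, that passed on at least 1 day; a gene outside it was not called on any day, and medians over genes in it describe a set already chosen for change.

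At day 7, 781 of the 19085 genes changed, which is 4.09% of those tested. Of these, 593 rose (3.11%) and 188 fell (0.985%). The median log2 fold change at day 7 over all genes in the authors' deposited table was 0.14, and 56.7% of them were above 0. Protein-coding genes made up 562 of the risen and 163 of the fallen genes. Among the lists examined, extracellular matrix and the markers of mural, fibroblast and meningeal cells had the highest shares of risen members. The lists hold 97 of the 593 risen genes and 13 of the 188 fallen ones, so most changed genes lie outside them. No list had more than 3 fallen members.

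How large a change had to be to pass depended strongly on expression. The authors' deposited table holds a rank that is read here as that of mean expression, with 1 the highest. Among genes ranked 1 to 1000 the median implied SE was 0.23, and a gene with that error needed a log2 fold change of 0.70 to be called; 32 rose and 9 fell. In ranks 10001 to 14313 the median SE was 1.10 and the size needed was 3.36, with 198 risen and 54 fallen genes. In the lowest band, 14314 to 19085, 29 genes rose and 32 fell. Large changes low in the ranking may come from a handful of reads, and without values per library it cannot be seen whether 1 library carries them.

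**Figure D1:**
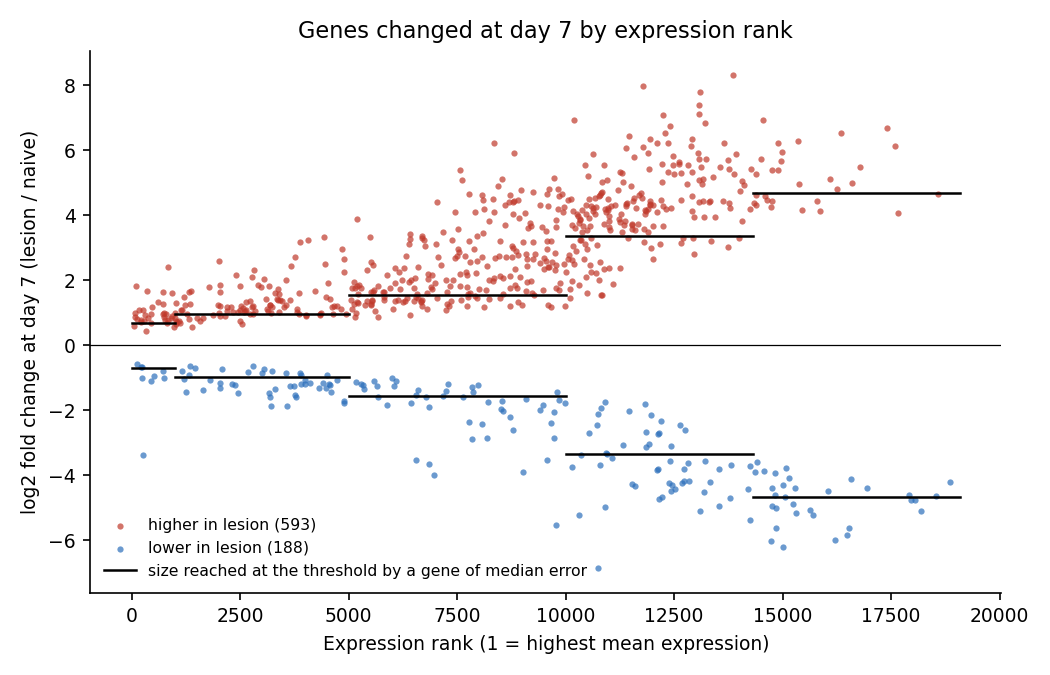
Log2 fold change (lesion over naive) of each gene changed at day 7 against its expression rank, 1 being the highest; red points are the 593 risen and blue points the 188 fallen genes. Black bars mark the size that a gene of median error needs in each rank band, which widens from 0.70 to 4.67 as expression falls.

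The extracellular matrix held the largest share of risen genes among the 34 lists examined: 22 of its 40 genes rose, which is 55% of the list against 3.11% of all genes tested, and 1, Sparcl1, fell. The median log2 fold change of the 33 members in the authors' deposited table was 1.69. Col1a1 and Col1a2 encode the chains of type I collagen, the main fibrillar collagen of connective tissue. The authors' deposited table gave Col1a1 (chr11:94936224-94953042 on mm10, the build of all positions here) a log2 fold change of 3.35 ± 0.36, a 10.2-fold higher level in lesion cultures (adjusted p = 3.45e-07). In the authors' deposited table Col1a2 (chr6:4504814-4541544) stood at 3.33 ± 0.45 (adjusted p = 1.44e-05). Col3a1, the chain of type III collagen, which is laid down with type I in scars, had 4.21 ± 0.74 (adjusted p = 0.00109) there. None of these chains was past the threshold at days 1, 2 or 3, as the plot of matrix genes by day shows.

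Basement membrane and microfibrillar collagens rose as well. Of the 23 collagen chain genes in the authors' deposited table, 14 rose at day 7 and none fell, with a median log2 fold change of 2.31; this family was picked by symbol after its values were seen. The type IV chains of basement membranes had 2.40 ± 0.53 (Col4a1) and 2.60 ± 0.59 (Col4a2) in the authors' deposited table. The type VI chains, which form beaded microfilaments around cells, had 2.31 ± 0.46 (Col6a1), 2.01 ± 0.52 (Col6a2) and 4.03 ± 0.65 (Col6a3). Col5a1, a chain that controls the width of type I fibrils, had 2.02 ± 0.29 (adjusted p = 7e-05) in the authors' deposited table. Col8a1 and Col18a1, at 0.32 ± 0.32 and 1.69 ± 0.56, did not pass.

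Other matrix glycoproteins and proteoglycans also rose. The authors' deposited table listed Fn1, fibronectin, at 1.68 ± 0.39, and Thbs2, an antiangiogenic thrombospondin, at 2.88 ± 0.46. Bgn, the small leucine-rich proteoglycan biglycan, had 1.78 ± 0.29 (adjusted p = 0.000377), whereas its relative Dcn, decorin, had 0.64 ± 0.82 and an adjusted p of 0.767. Vcan, the large proteoglycan versican, stood at 2.72 ± 0.71 in the authors' deposited table, against -0.13 ± 0.41 for Ncan, neurocan, a proteoglycan of brain matrix that did not pass. Sparcl1, also called hevin, a synapse-organizing relative of Sparc made by astrocytes, fell by 1.43 on the log2 scale (SE 0.29, adjusted p = 0.00554); Sparc itself rose, with 1.00 ± 0.30.

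The enzymes that fold, trim and crosslink collagen also rose. In a group assembled after its values were seen, 14 of 33 such genes rose and none fell, with a median log2 fold change of 1.17 over the 25 in the authors' deposited table. Lox, lysyl oxidase, which crosslinks collagen and elastin, had 1.65 ± 0.29 (adjusted p = 0.00107) there, and its relative Loxl1 had 2.24 ± 0.49. Serpinh1, the collagen chaperone HSP47, had 1.33 ± 0.32. Pcolce, an enhancer of procollagen trimming, had 1.61 ± 0.36, and P4ha2, a prolyl hydroxylase subunit, had 2.71 ± 0.73. Elastic fibre and microfibril genes, grouped in the same way, counted 10 risen of 18 with a median of 1.69. Fibrillin-1 (Fbn1) was at 3.71 ± 0.71 and fibulin-2 (Fbln2) at 2.04 ± 0.25 (adjusted p = 3.85e-06) in the authors' deposited table. Lox, Loxl1 and Fbn1 are also counted above among the risen extracellular matrix genes, and Loxl1 is in both of these groups.

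**Figure D2:**
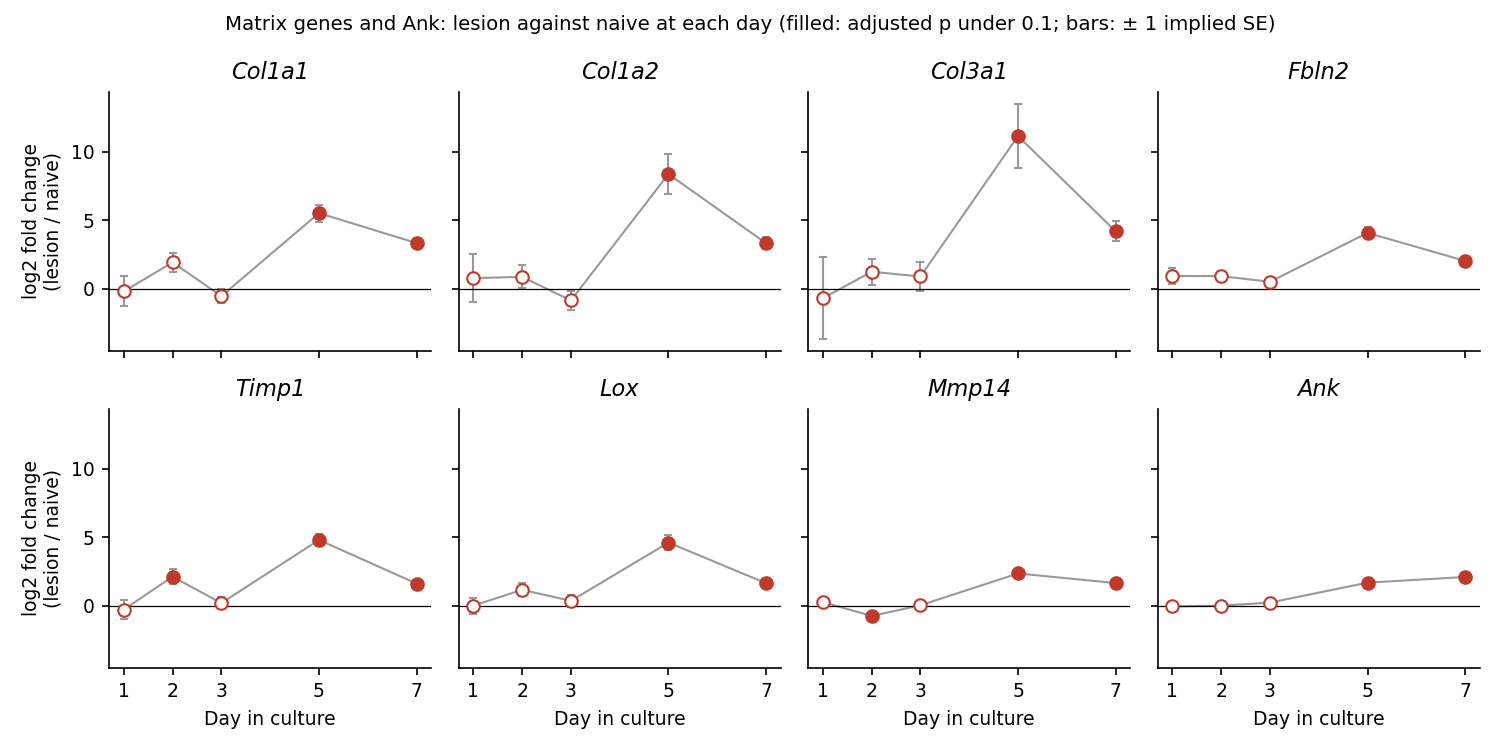
Log2 fold change (lesion over naive) of 7 matrix or matrix-processing genes and Ank at culture days 1, 2, 3, 5 and 7, from the authors' deposited table; bars are ± 1 implied SE and filled points have an adjusted p under 0.1. All 8 genes are above 0 and past the threshold at days 5 and 7; the first 7 are closer to 0 at day 7 than at day 5, and Ank is not. Timp1 and Mmp14 are also filled at day 2, on opposite sides of 0.

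Markers of mural cells, fibroblasts and meninges moved beside the matrix. Of 24 such markers, 10 rose and none fell, also at an unadjusted p under 0.05. That is 41.7% risen, against 3.11% of all genes tested. The median was 1.25 over the 19 markers in the authors' deposited table. Of the 10, 4 (Col1a1, Col1a2, Col3a1 and Fn1) are on the extracellular matrix list counted above, and Fbln1 is in the elastic fibre group. Among the rest, Mgp, matrix Gla protein, had 1.48 ± 0.30 (adjusted p = 0.00591), and Tagln, a smooth muscle actin-binding protein, had 1.38 ± 0.33, in the authors' deposited table. Foxc1 and Foxd1, forkhead factors of meningeal and mural lineages, had 1.97 ± 0.50 and 1.25 ± 0.40. Pdgfrb, the receptor that marks mural cells, had 2.12 ± 0.68 with an adjusted p of 0.0966. Not every marker of these cells rose: the authors' deposited table gave -2.19 ± 1.90 for Lum, -0.76 ± 0.82 for Pdgfra, -1.41 ± 1.11 for Myh11 and 0.75 ± 0.45 for Acta2, none past the threshold. In such bulk RNA, more cells of a type and more RNA of a gene per cell cannot be told apart, and the part of these markers in the matrix result was not tested.

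Transcription factors of mesenchymal cells and contractile genes also held risen members. In a group of 23 mesenchymal factors assembled after values were seen, 10 rose and none fell. Foxc1 and Foxd1, counted above, are among them. Prrx1 and Prrx2, paired-related homeobox factors of limb and craniofacial mesenchyme, had 2.11 ± 0.48 and 1.23 ± 0.22 in the authors' deposited table, and Snai2, which represses epithelial genes, had 5.08 ± 1.40. On the list of contractile and TGF-beta target genes, 7 of 28 rose and none fell (median 0.83 over 22 genes). That is 25% risen, against 3.11% of all genes tested. The risen members were Tagln, Tpm2, Flna, Cald1, Tgfb1, Ltbp2 and Inhba, of which Tagln and Ltbp2 are also counted in sets above. Tpm2, a tropomyosin, had 2.73 ± 0.47 (adjusted p = 0.00106), Tgfb1, the cytokine itself, had 1.93 ± 0.51, and Ltbp2, a latent TGF-beta binding protein, had 2.66 ± 0.54, in the authors' deposited table.

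Receptors and proteases that attach cells to matrix and remodel it rose in 11 of 35 cases, against 3.11% of all genes tested. The risen share was 31.4%, with none fallen and a median of 1.16 over the 22 genes in the authors' deposited table. Integrin alpha5 and alphaV, chains of receptors for fibronectin and vitronectin, had 1.87 ± 0.50 (Itga5) and 1.75 ± 0.54 (Itgav), and the shared beta1 chain had 0.79 ± 0.25 (Itgb1). Mmp14, a membrane-bound collagenase, had 1.66 ± 0.22 (adjusted p = 1.25e-05) in the authors' deposited table. Its substrate pro-MMP2 is encoded by Mmp2, which had 2.11 ± 0.37. Mmp19, a further matrix metalloproteinase, had 6.12 ± 1.16. The inhibitors rose as well: Timp1, Timp2 and Timp3 stood at 1.63 ± 0.27, 0.73 ± 0.17 and 1.11 ± 0.24 in the authors' deposited table.

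Several genes of the aryl hydrocarbon receptor pathway were higher in lesion cultures. This receptor is a ligand-activated transcription factor, which binds DNA with its partner ARNT at xenobiotic response elements and switches on drug-metabolizing enzymes and its own repressor. In a group of 11 genes assembled after values were seen, 6 rose and none fell, with a median of 1.92 over the 8 in the authors' deposited table. Cyp1b1 (chr17:79701537-79715061), a cytochrome P450, had 2.47 ± 0.32, a 5.54-fold higher level in lesion cultures (adjusted p = 1.25e-05). Cyp1a1, the receptor's best-known target, had 1.77 ± 0.31, and Nqo1, a quinone reductase that is also a target of Nrf2, had 1.08 ± 0.20 in the authors' deposited table. The receptor gene Ahr had 3.56 ± 0.99 and the repressor gene Ahrr had 3.31 ± 1.01. The targets Cyp1a2 and Aldh3a1 had 0.45 ± 1.54 and 1.44 ± 0.62 in the authors' deposited table and did not pass. The promoters of Ahr, Nqo1 and Xdh, which rose as well, are not given here. Those of the other 3 risen genes, Ahrr, Cyp1a1 and Cyp1b1, are shown and do not stand for the whole group. Each is the 250 bases before the gene's start, from RefSeq on GRCm38.p6 and on the strand of the gene, with the core of the xenobiotic response element (GCGTG, or CACGC on the other strand) in capitals.
Ahrr, chr13:74292332-74292581, minus strand: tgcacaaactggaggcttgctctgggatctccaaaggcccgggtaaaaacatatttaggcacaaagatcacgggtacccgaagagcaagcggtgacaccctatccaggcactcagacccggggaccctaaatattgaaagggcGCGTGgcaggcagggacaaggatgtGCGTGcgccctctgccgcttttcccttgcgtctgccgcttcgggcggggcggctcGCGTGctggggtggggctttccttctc
Cyp1a1, chr9:57697363-57697612, plus strand: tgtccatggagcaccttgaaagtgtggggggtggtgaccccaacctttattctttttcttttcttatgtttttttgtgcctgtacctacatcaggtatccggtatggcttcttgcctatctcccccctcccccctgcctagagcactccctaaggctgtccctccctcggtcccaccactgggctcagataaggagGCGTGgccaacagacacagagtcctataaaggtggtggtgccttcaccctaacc
Cyp1b1, chr17:79715062-79715311, minus strand: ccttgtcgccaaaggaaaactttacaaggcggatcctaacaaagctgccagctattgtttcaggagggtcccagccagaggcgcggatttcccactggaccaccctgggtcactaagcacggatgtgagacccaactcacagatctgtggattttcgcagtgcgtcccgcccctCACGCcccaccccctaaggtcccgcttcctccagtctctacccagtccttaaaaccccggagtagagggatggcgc
Ahrr carries the core 3 times, and Cyp1a1 and Cyp1b1 once each; in Cyp1b1 it lies on the strand opposite to the gene. The core was searched on both strands, as was the longer form TNGCGTG, which contains it. The core occurred in 155 of 372 promoters of risen genes (41.7%), in 37 of 98 of fallen genes (37.8%), in 42% of the 2963 of genes in the authors' deposited table not called at day 7, and in 27.7% of all 22862 promoters of this length. TNGCGTG occurred in 4.3%, 7.14%, 6.14% and 4.09% of the same sets. The share with a core among risen genes was thus close to that of table genes that were not called.

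Growth factors and guidance cues rose in smaller numbers. Of 41 growth factors and receptors, 5 rose (Fgf2, Areg, Pdgfc, Pdgfrb and Igfbp4) and Igfbp2 fell. That is 12.2% risen and 2.44% fallen, against 3.11% and 0.985% of all genes tested. Igfbp4, which binds insulin-like growth factors, had 2.76 ± 0.41 (adjusted p = 0.000113), and Areg, a ligand of the EGF receptor, had 2.34 ± 0.47, in the authors' deposited table. Fgf2 and Pdgfc, growth factors for fibroblasts and other mesenchymal cells, had 5.41 ± 1.17 and 5.56 ± 1.33. Of 40 axon guidance genes, 9 rose (22.5%) and none fell, with a median of 1.21 over the 23 in the authors' deposited table. They are semaphorins and their receptors, ephrins and Eph receptors. Sema5a, a transmembrane semaphorin, had 3.69 ± 0.90, and Plxna1 and Plxna2, plexin receptors for semaphorins, had 1.31 ± 0.34 and 2.50 ± 0.56, in the authors' deposited table. Ephb1 had 4.11 ± 1.22. Only 3 of the 9 remained at an adjusted p under 0.05.

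Genes of dividing cells rose in 7 of 32 cases on the cell cycle list, with none fallen and a median of 1.44 over 29 genes in the authors' deposited table. Aurkb, the kinase of the chromosomal passenger complex, had 6.44 ± 1.41 (adjusted p = 0.0115) there, and Birc5, survivin, of the same complex, had 1.85 ± 0.57. Rrm1, the large subunit of ribonucleotide reductase, had 2.45 ± 0.57, and Tyms, thymidylate synthase, had 2.02 ± 0.57. Several standard proliferation genes did not pass: the authors' deposited table gave Mki67 1.70 ± 0.80, Top2a 2.75 ± 1.01 and Cdk1 1.53 ± 0.62. Wider groups were assembled after values were seen, a choice that by itself favours high counts. They held 15 risen of 36 spindle and kinetochore genes (median 3.03) and 14 risen of 30 replication genes (median 2.45). None fell in either, also at an unadjusted p under 0.05. Aurkb, Birc5, Rrm1 and Tyms are counted both there and on the cell cycle list. The risen share was 21.9% on the cell cycle list, against 3.11% of all genes tested. Pola1, the catalytic subunit of the DNA polymerase that primes replication, had 4.79 ± 1.09 (adjusted p = 0.0153) in the authors' deposited table. Of the 7 on the cell cycle list, 4 have an expression rank of at most 9542, and 2 held at an adjusted p under 0.05.

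Pan-neuronal genes were called at day 7 at about the share of all genes tested. Of 24, 1 fell and none rose (1 was higher at an unadjusted p under 0.05). That is 4.17% called, against 4.09% of all genes tested, in either direction. The median over the 17 in the authors' deposited table was -0.38. Tubb3, the neuronal tubulin, had -0.38 ± 0.41, Map2, a dendritic microtubule protein, had -0.61 ± 0.40, and Rbfox3, the NeuN antigen, had 0.80 ± 0.63, none past the threshold in the authors' deposited table. Elavl2, a neuronal RNA-binding protein, fell by 2.86 (SE 0.87, adjusted p = 0.0791). Synaptic genes leaned to lower values: 25 of 27 in the authors' deposited table were below 0, with a median of -0.61. Of the 40 on the list, 3 fell, which is 7.5% against 0.985% of all genes tested. Among them were Syt11, a synaptotagmin, at -0.99 ± 0.27, and Grin2a, an NMDA receptor subunit, at -5.09 ± 1.25.

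Among GABAergic genes, Gad1, the enzyme that makes GABA, fell by 1.01 on the log2 scale (SE 0.28, adjusted p = 0.0524) in the authors' deposited table, 1 of 22 listed genes to do so; Gad2 had -0.64 ± 0.34 and did not pass. Foxp2, a deep-layer cortical factor, was the 1 of 25 glutamatergic genes to rise, with 3.22 ± 0.92. Of 32 ion channel genes, 1 rose: Kcnc2, a potassium channel of fast-spiking interneurons, with 5.30 ± 1.45. These single calls are 4.55%, 4% and 3.12% of their lists, near the 4.09% of all genes tested called in either direction. Grm2 and Grm7, presynaptic metabotropic glutamate receptors picked after values were seen, fell, with -1.75 ± 0.41 and -2.67 ± 0.83 in the authors' deposited table. As a check of the neuronal label, the pan-neuronal markers Stmn3, Nsg1 and Tubb3 ranked 81, 193 and 321 of the 19085 genes. Others on the same list ranked far lower: Rbfox3 7785, Elavl2 8181, Snhg11 10593 and Nefm 11022. Sparc and Spp1 ranked 74 and 98, and whether ranks are per length is not stated. The ranks therefore do not settle the label.

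**Figure D3:**
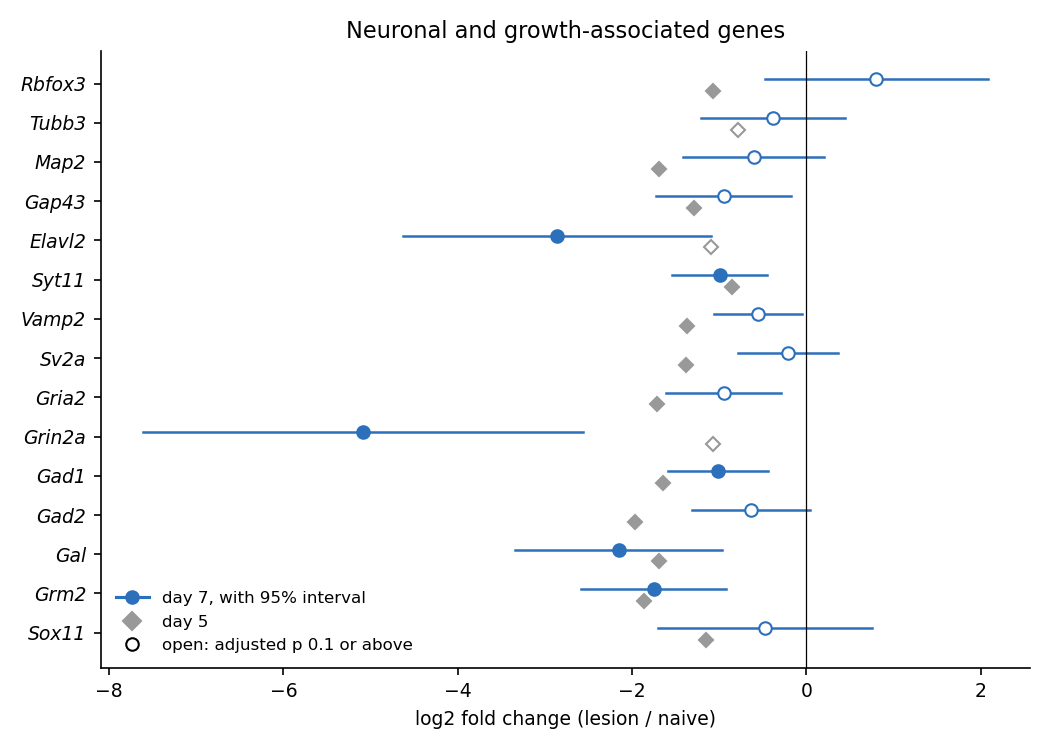
Log2 fold change (lesion over naive) of 15 neuronal, synaptic and growth-associated genes from the authors' deposited table: circles are day 7 with their 95% interval and diamonds are day 5; open symbols have an adjusted p of 0.1 or above. At day 7, 6 of the 15 are filled and all 6 lie below 0. Vamp2, Sv2a, Gria2, Gad2 and Grm2 were picked after their values were seen. Genes of these kinds that rose, among them Ncam1, Map1a, Foxp2, Kcnc2 and Crh, are not plotted. The shared direction thus holds for the plotted genes only.

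Regeneration-associated genes, the set that a conditioning lesion is known to switch on in sensory neurons, showed no common direction. Of 50, 4 rose (8%) and 1 fell (2%), against 3.11% and 0.985% of all genes tested. The median over the 29 in the authors' deposited table was -0.20. The risen members were Lgals1 (galectin-1, 1.08 ± 0.22), Anxa1 (annexin A1, 1.19 ± 0.32), Ncam1 (a neural adhesion molecule, 1.19 ± 0.31) and Sdc1 (syndecan-1, 1.37 ± 0.39). Galanin, a neuropeptide of injured neurons encoded by Gal, fell by 2.16 (SE 0.58, adjusted p = 0.046) in the authors' deposited table. The growth-cone protein gene Gap43 had -0.95 ± 0.38 with an adjusted p of 0.192. The injury-induced transcription factors Atf3, Jun, Sox11 and Klf4 had -1.53 ± 0.68, 0.41 ± 0.44, -0.47 ± 0.61 and 0.56 ± 0.49 in the authors' deposited table, none past the threshold. Sprr1a, Klf6, Stat3 and Socs3 are outside the table and so were not called on any day. Among 40 growth cone and cytoskeleton genes, 1 rose, Map1a, a microtubule-associated protein, with 1.07 ± 0.34. That is 2.5% of the list, near the risen share of all genes tested.

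Neuropeptide and immediate early genes had risen shares of 7.41% and 6.9%, against 3.11% of all genes tested. Each share rests on 2 genes. Of 27 neuropeptide genes, Crh (corticotropin-releasing hormone) and Cartpt rose, with 5.71 ± 1.56 and 3.31 ± 1.07 in the authors' deposited table, and Gal fell. Egr2 and Egr3, activity-induced zinc finger factors, rose, with 3.82 ± 0.79 and 3.16 ± 0.83; they were 2 of 29 immediate early genes, and none fell.

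Glial and immune markers moved in both directions. Of 36 reactive astrocyte genes, 4 rose and none fell: Timp1, Fbln5, Steap4 and Chil1, a chitinase-like protein whose 8.31 ± 1.80 was the highest log2 fold change of any gene with a rank of at most 14313 in the authors' deposited table. Gfap, the classical astrocyte filament, had 0.24 ± 0.43 (adjusted p = 0.841); of 21 general astrocyte markers, Id3 rose, with 0.75 ± 0.17. Lyz2, a lysozyme of macrophages and microglia ranked 270, had -3.38 ± 1.05 (adjusted p = 0.0837) in the authors' deposited table. Spp1, osteopontin, a matrix protein of activated microglia and of many other cells, rose, with 1.84 ± 0.36, as did Tmem119, a marker of microglia that osteoblasts also make, with 4.60 ± 1.11. Clec4n and Cd200r1, lectin and inhibitory receptors of myeloid cells, fell, with -5.52 ± 1.63 and -5.21 ± 1.52. Csf1r and Cd14 had 1.09 ± 1.02 and -2.69 ± 1.32, neither past the threshold. None of the 20 endothelial, 18 ependymal or 24 progenitor markers was called at day 7 by the limma test. Of all genes tested 4.09% were called, so lists this short may hold no call at that share alone. At an unadjusted p under 0.05, among those in the authors' deposited table, 2 endothelial markers were lower and 2 progenitor markers higher. Of 25 oligodendrocyte lineage markers, Cspg4, the NG2 proteoglycan that pericytes also carry, rose, with 2.55 ± 0.52. Of 20 blood cell markers, Cd79a fell. Called shares were 11.1% of reactive astrocyte, 4.76% of astrocyte, 4% of oligodendrocyte lineage and 5% of blood cell markers. All but the first are near the 4.09% of all genes tested called in either direction. Of microglia and macrophage markers 6.67% rose and 3.33% fell, against 3.11% and 0.985% of all genes tested.

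Immune and inflammatory lists had risen shares of 5.88%, 6.25% and 3.57%, against 3.11% of all genes tested. Il11, a cytokine of the IL-6 family, and Cx3cl1, the neuronal chemokine fractalkine, were the 2 risen of 34 cytokine genes, with 1.86 ± 0.52 and 1.84 ± 0.46 in the authors' deposited table. Of 32 interferon and antigen presentation genes, Ifitm2 and Tapbp rose, with 1.23 ± 0.31 and 1.65 ± 0.47, and Psmb9, an immunoproteasome subunit, fell, with -3.34 ± 0.97. C1ra, a complement protease, was 1 of 28 complement and lysosome genes and had 4.94 ± 1.42.

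Stress and metabolic lists had risen shares of 14.3% (oxidative stress), 5.88% (heat shock), 6.9% (glycolysis) and 6.67% (apoptosis), against 3.11% of all genes tested. All but the first share rest on 2 genes each. Of 28 oxidative stress genes, 4 rose (Nqo1, Gsta4, Gstp1 and G6pdx) and Mt2, a metallothionein, fell; the authors' deposited table gave G6pdx, the entry enzyme of the pentose phosphate pathway, 1.63 ± 0.38, and Mt2 -0.72 ± 0.19. The endoplasmic reticulum chaperones Hsp90b1 and Pdia4 rose, with 0.82 ± 0.20 and 0.99 ± 0.23, and Atf4, the stress-response factor, fell, with -0.65 ± 0.19; they were 3 of 34 heat shock and unfolded protein genes. Ldha, lactate dehydrogenase A, ranked 56, and P4ha2 were the 2 risen of 29 glycolysis and hypoxia genes; Ldha had 0.59 ± 0.17 in the authors' deposited table. Casp9, the initiator caspase of the mitochondrial pathway, and Ripk3, a kinase of necroptosis, were the 2 risen of 30 apoptosis and p53 genes, with 4.42 ± 1.31 and 1.76 ± 0.51. No member of the 39 oxidative phosphorylation, 45 ribosomal protein or 25 cholesterol genes was called by the limma test, against 4.09% of all genes tested. At that share, few calls would fall in lists of this size. At an unadjusted p under 0.05, and among those that the authors' deposited table lists, 3 oxidative phosphorylation genes were lower, 1 ribosomal protein gene was higher and 1 lower. Of the oxidative phosphorylation genes, 21 of the 22 listed there were below 0, with a median of -0.23.

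**Figure D4:**
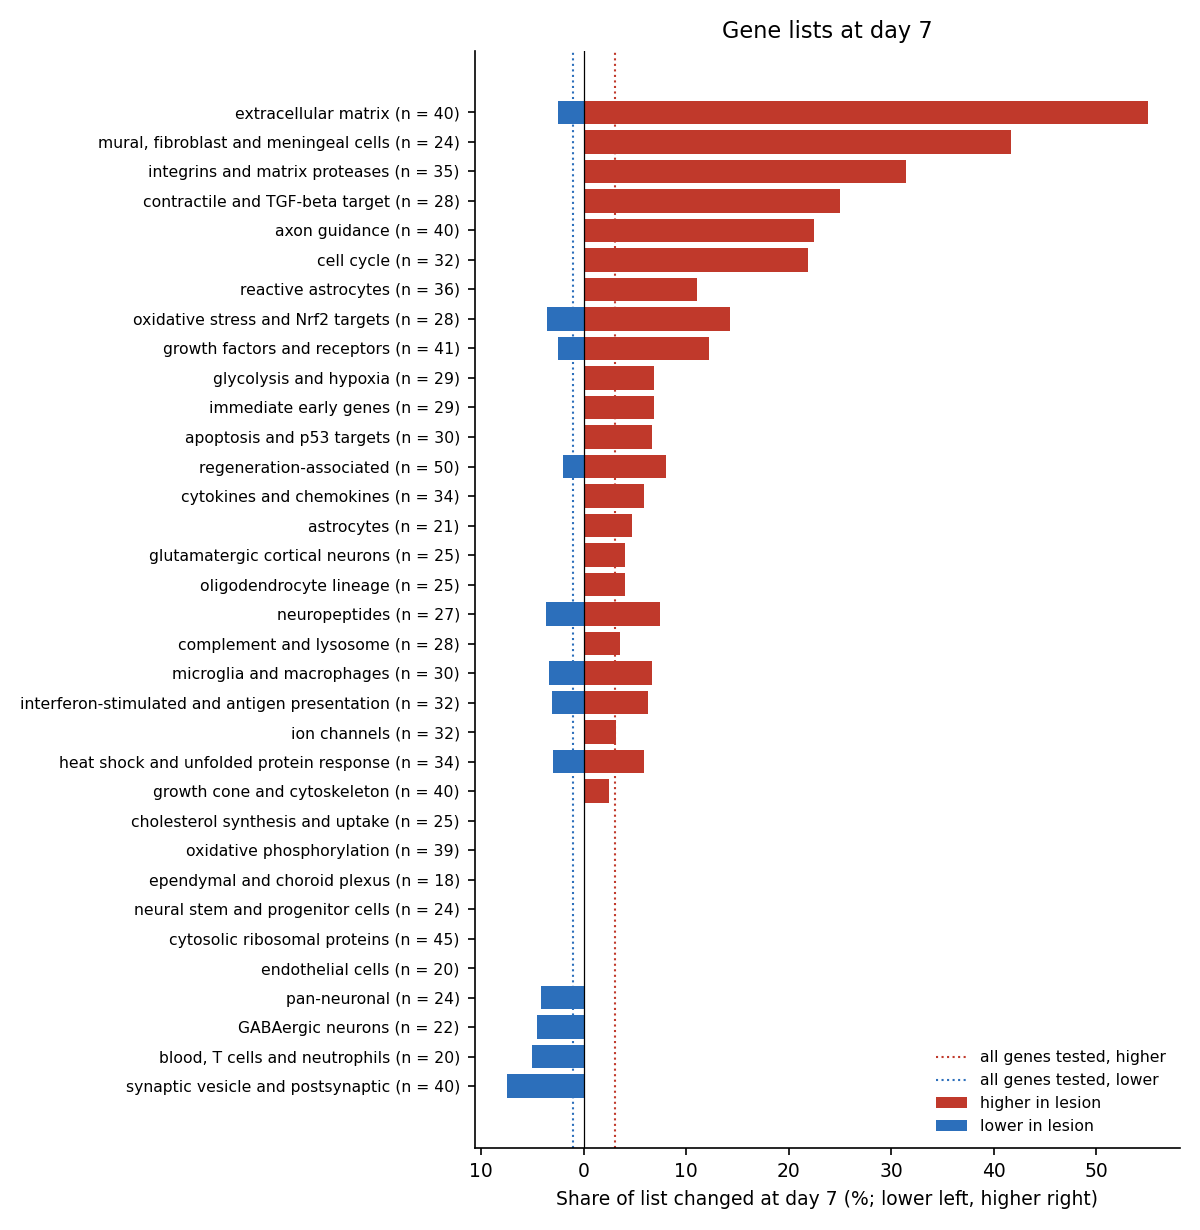
Share of each of the 34 gene lists (n is the number of genes on the list) that changed at day 7, with risen members to the right in red and fallen members to the left in blue; dotted lines mark the shares of all genes tested, 3.11% and 0.985%. The extracellular matrix stands highest at 55% risen, then mural, fibroblast and meningeal markers at 41.7%; 6 lists have no changed member.

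Beyond the lists, the smallest adjusted p-values among risen genes belonged to transporters as well as matrix. Ank (chr15:27466677-27594909), which exports pyrophosphate and so restrains mineral formation, shared with Col1a1 the smallest value in the authors' deposited table at day 7, 3.45e-07, with 2.11 ± 0.23. Slc29a1, an equilibrative nucleoside transporter, had 2.32 ± 0.30, and Slc20a1, a phosphate transporter, had 1.81 ± 0.24. Akr1c18, a steroid dehydrogenase, had 4.29 ± 0.57 (adjusted p = 1.27e-05) in the authors' deposited table. Leaving out clone names and ranks above 14313, the fallen genes with the smallest adjusted p-values were Sparcl1, Abca8b, Ccdc73, Fam49a, Ncoa1, Sik1, Ndp and Nrip3, from 0.00554 to 0.0163. Ncoa1, a steroid receptor coactivator, had -1.71 ± 0.38, Sik1, a salt-inducible kinase, had -1.77 ± 0.40, and Nrip3 had -1.26 ± 0.29 in the authors' deposited table.

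The largest fold changes belonged to weakly expressed genes with wide errors. With clone names and ranks above 14313 left out, the highest after Chil1 were Lipt1 (7.98 ± 1.32), which transfers lipoic acid, Mpzl2 (7.80 ± 1.93), an adhesion protein, Neu3 (7.40 ± 1.45), a ganglioside sialidase, Card6 (7.13 ± 1.66) and Inhbb (7.09 ± 1.29), an activin subunit, in the authors' deposited table. Then came Amer3, Spag6, Pcdhb21, Ptger4, Aurkb and Rsl1, between 6.92 and 6.34. Within the same limits the lowest were Clec4n, Cd200r1 and Grin2a, then Jakmip1 (-4.97 ± 1.43), Abca8b (-4.73 ± 1.01), Ppp1r3fos (-4.70 ± 1.49), Myh7 (-4.67 ± 1.36), Egfl8 (-4.50 ± 1.23), Ndp (-4.48 ± 1.03), Eps8l2, Zcchc16 and Igtp (-4.31 ± 1.29). Spag6 and Pcdhb21 have near-identical relatives, and Ppp1r3fos is annotated antisense to another gene; whether counting used strand is not given, so reads may be shared. The ranks of these 24 genes run from 9773 to 14196.

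Day 5 is the nearest earlier day, and its comparison uses other libraries. There 12.8% of genes tested were higher and 11.2% lower in lesion cultures. Of the 593 genes that rose at day 7, 336 (56.7%) had also risen at day 5, 12 had fallen and 245 were not called, and 80.4% had a positive day 5 value. Of the 188 that fell at day 7, 65 (34.6%) had also fallen at day 5 and 3 had risen, and 80.3% had a negative value. Seen from day 5, the 336 are 13.8% of 2438 risen genes and the 65 are 3.04% of 2137 fallen genes. The genes risen at day 5 had a median log2 fold change of 0.66 at day 7 and 3.30 at day 5 in the authors' deposited table; those fallen at day 5 had medians of -0.22 and -1.14. Both sets were chosen for passing at day 5, so their day 5 medians are not an independent measure. Of the genes risen at day 7, none had risen at day 1 by the limma test (17 were above 0 there at an unadjusted p under 0.05), 11 at day 2 (1.85%) and 2 at day 3 (0.337%); of all genes tested, 0.0891%, 1.89% and 0.534% rose on those days. Of the genes fallen at day 7, none had fallen at day 1 by the limma test (9 were below 0 at an unadjusted p under 0.05), 7 at day 2 (3.72%) and 5 at day 3 (2.66%), against 0.529%, 4.08% and 0.943% of all genes tested. These overlaps are 3.05% and 1.96% of the genes risen, and 0.899% and 2.78% of those fallen, at days 2 and 3.

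The day 7 change was also set against the day 5 change gene by gene, with a t statistic from the implied errors adjusted over all 19085 genes. It differed for 487 genes (2.55%). Of these, 238 had risen at day 5, each with a lower value at day 7, and 154 had fallen at day 5, each with a higher value at day 7. Both of these sets were chosen for passing at day 5, which by itself favours differences in these directions. Among extracellular matrix genes, 9 of 33 in the authors' deposited table differed, all lower at day 7. Lox had 1.65 at day 7 and 4.62 at day 5, a difference of -2.96 ± 0.59 (adjusted p = 0.0138), and Timp1 had 1.63 and 4.81, a difference of -3.18 ± 0.52 (adjusted p = 0.00207). For Col1a1 the difference was -2.18 ± 0.71 and did not pass (adjusted p = 0.123), and for Ank it was 0.42 ± 0.34. Nqo1 had the smallest adjusted p of a difference among the genes named here: 1.08 at day 7 and 4.49 at day 5, a difference of -3.41 ± 0.44 (adjusted p = 4.68e-05).

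More neuronal genes had a call at day 5, but few of the differences between days passed. Of pan-neuronal genes, 1 had fallen at day 7 and 14 at day 5, and the change differed for 1 gene, Snhg11. Of synaptic genes, 3 had fallen at day 7 and 25 at day 5, and it differed for 1, Grin1. Of GABAergic genes, 1 had fallen at day 7 and 15 at day 5; Sst and Npy, peptides of cortical interneurons, differed, with 0.40 and -0.07 at day 7 and -3.12 and -3.32 at day 5 in the authors' deposited table. In the spindle and kinetochore group, assembled after its values were seen, 15 genes had risen at day 7 and 21 at day 5. Its medians were 3.03 at day 7 and 3.27 at day 5 in the authors' deposited table. On the cell cycle list, 7 had risen at day 7 and 27 at day 5, with medians of 1.44 and 3.02.

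In 15 genes the calls at days 7 and 5 were opposite. The authors' deposited table gave Cdh1, E-cadherin, -3.10 at day 7 and 5.21 at day 5 (difference -8.31 ± 1.45, adjusted p = 0.00431). Kcna3, a potassium channel of lymphocytes and microglia, had 5.04 at day 7 and -4.82 at day 5 there, and Sema5a had 3.69 and -1.63. Rhpn1, Zfp51, Cbx7, Zfp949, Cep63, Sart1 and Polr1a were likewise higher at day 7 and lower at day 5, and Hsd17b2 the reverse; the other 4 have clone names. Of these, Rhpn1, Kcna3, Zfp51, Sema5a and Cdh1 meet the rule for named genes, and the rest are named because they complete the set of 15.

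**Figure D5:**
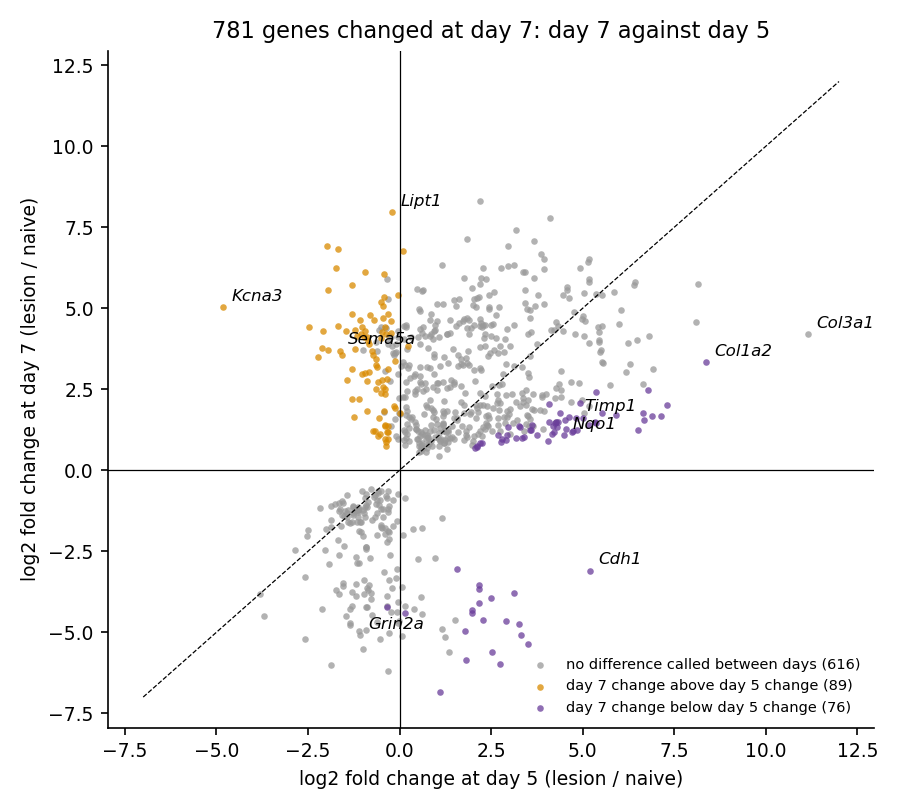
Log2 fold change (lesion over naive) at day 7 against day 5 for the 781 genes changed at day 7, from the authors' deposited table; the dashed line marks equal values, orange points have a day 7 change above that of day 5 (89), purple points one below it (76), and grey points no called difference (616). Most risen genes lie right of the vertical axis, as 80.4% of them were above 0 at day 5.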

How the data were processed

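RNA from cultured adult mouse cortical neurons was prepared with an ultra-low input kit and sequenced on a HiSeq4000, per the labels' protocols. Reads were aligned with STAR to mm10, as the submitters' processing notes name them. How reads were counted, filtered and scaled, whether strand was used, and which terms the model held are each not given in the sources used here. The deposited file is a table of the authors' comparisons by voom and limma, per its name, which lists for each day a log2 fold change, a p-value and its adjusted form, per the file headers. A column of ranks has no unit in the deposited file. As the authors' table gives no values per library, neither the depth of a sample nor its precision is known.

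No gene was tested again. Benjamini-Hochberg adjustment over 19085 tests returned the deposited adjusted p-values with a largest relative deviation of 9.15e-13. Implied standard errors came from the t distribution with 37 degrees of freedom, found from 526 highly expressed genes; 10 group means over all libraries would leave 19. The difference between days used both implied errors, was adjusted over all genes tested with genes outside the table at a p of 1, and was tested on simulated data. Positions came from GENCODE vM21 on GRCm38, the assembly of mm10; 5439 of 5442 symbols lay on the chromosome that the file gives.

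The comparison, the 34 gene lists and the rules were chosen with earlier results of these data known. Named genes are the 12 highest and 12 lowest log2 fold changes among called genes, the 8 risen and 8 fallen with the smallest adjusted p, up to 4 members per list, the 10 with the clearest difference from a day 5 value of opposite sign, and 16 fixed genes, of which 10 are in the table; clone names and ranks above 14313 were left out. The rule gave 114 genes, 105 of them called. Other list members, groups and symbol families were named after their values were seen. A few members enter the counts without being reported here by name. Of 981 list genes, 571 are in the table, 3 of them by a synonym. Alternatives were other thresholds of adjusted p, a minimum fold change, ranks of at most 9542, Bonferroni adjustment, adjustment over 5 days together and 19 degrees of freedom. Python 3.11.15, numpy 2.4.6, scipy 1.17.1 and pandas 2.3.3 were used.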

Additional observations from a re-analysis of the deposited data

Results flagged for a closer look

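For 27 of the named genes the lesion-against-naive change at day 7 differed from that at day 5 by the t statistic of the difference (adjusted p under 0.1 over all genes tested; computed here from the authors' deposited table). The 10 genes named for the clearest difference from a day 5 value of opposite sign were chosen by this same statistic. All 10 are among the 27, so the count is partly set by that choice. Values are the day 7 minus the day 5 log2 fold change.

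In 13 genes the day 7 change was the higher. They were Kcna3 (9.86), Amer3 (8.89), Spag6 (8.51), Lipt1 (8.17), Wdr31 (7.96), Rhpn1 (7.54), Crh (7.02) and Pcdhb21 (6.67). The others were Zfp51 (6.38), Pola1 (5.60), Sema5a (5.32), Casp9 (4.81) and Map1a (1.66). All but Map1a and Casp9 have an adjusted p of the difference of at most 0.0537.

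In the other 14 the day 7 change was the lower. Matrix and contractile genes among them were Col1a2 (-5.04), Timp1 (-3.18), Mgp (-2.85), Tagln (-2.82) and Fbln2 (-2.04). Enzymes and membrane proteins were Cyp1b1 (-4.32), Nqo1 (-3.41), Anxa1 (-3.53), Lgals1 (-1.61) and Ifitm2 (-2.34). These 10 had risen on both days. Cdh1 (-8.31), Igtp (-6.28), Zcchc16 (-4.56) and Ccdc73 (-3.87) fell at day 7.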

How the results depend on the processing

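The authors' adjusted p under 0.1 gave 781 changed genes at day 7, 593 higher and 188 lower. Under 0.05 the counts were 325, 266 and 59; under 0.01 they were 76, 73 and 3; among expression ranks of at most 9542 430, 336 and 94; and by Bonferroni adjustment 36, 36 and 0, where 504 table genes were below 0 at an unadjusted p under 0.05. Higher genes thus made up a larger part of the calls as the threshold tightened. A minimum log2 fold change of 1 and adjustment over 5 days together gave counts within 1.5 times of those reported (706 and 847 changed). Genes whose change differed between days 7 and 5 numbered 487, against 200 at an adjusted p under 0.05, 305 within those ranks and 468 with 19 degrees of freedom. Called list genes numbered 110, against 66 at 0.05 and 79 within those ranks. Of 11 counts of single lists, 3 moved by more than 1.5 times at 0.05: axon guidance fell to 3, reactive astrocytes to 2 and cell cycle to 2; 4 moved so within those ranks. With 19 degrees of freedom implied errors were 0.685 to 0.992 times as large.

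No paired analysis was possible because the authors' deposited table has no values per library. For the same reason leaving out each replicate in turn was not run, so the weight of either of the 2 naive libraries is unknown, as is depth.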

Other observations

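Groups outside the lists, picked by symbol after their values were seen, gave these counts at day 7, where 10.2% of all genes in the authors' deposited table rose and 3.23% fell. Of 16 small nucleolar and Cajal body RNA genes in the authors' deposited table, 4 fell (Scarna2, Snora5c, Snord12 and Snord35a), none rose, also at an unadjusted p under 0.05, and 14 were below 0; all 4 have expression ranks beyond 14313. Of 111 solute carrier genes there, 12 rose (10.8%) and 5 fell (4.5%), near those shares. Of 19 kinesin genes, 4 rose (Kif23, Kif20b, Kif2c and Kif20a), all of them kinesins of mitosis. Of 70 zinc finger genes of the Zfp series, 5 rose and 6 fell at day 7, against 10 and 40 at day 5. Of 18 clustered protocadherins, 2 rose and 2 fell; their isoforms share exons, and how shared reads were counted is not given. One risen gene is listed under a symbol turned into a date by a spreadsheet and was left unnamed.

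A few genes were called in the same direction at day 2 as at day 7. Ndp, which encodes norrin, a ligand of the Wnt pathway, was at -4.48 at day 7 and -4.83 at day 2 in the authors' deposited table, with no call at days 3 and 5. Lgals1 and Ldha, both of high expression rank, were above 0 and called at days 2, 5 and 7, with 1.08 and 0.59 at day 7.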
